A study of Mus musculus with 2 samples.

Results

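The Hox genes are the homeobox genes of the 4 clusters Hoxa, Hoxb, Hoxc and Hoxd, and their chromatin accessibility was described here in mouse regulatory T cells. Members were the protein-coding genes of the GENCODE annotation of mm10 whose symbol is Hoxa, Hoxb, Hoxc or Hoxd followed by a number. This gave 39 genes of 21938 protein-coding genes on chromosomes 1 to 19, X and Y. The stretch from the first to the last Hox gene of each cluster, with 50 kb to either side, held 83 of the 68832 regions listed for replicate 1 and 88 of the 78178 listed for replicate 2 on these chromosomes. A promoter was taken as 1 kb to either side of any annotated start site, and it counted as accessible where a region of the list overlapped it by 1 bp or more.

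The measurement was ATAC-seq, in which a transposase inserts sequencing adapters into open DNA, and each library came with its own list of accessible regions. Regulatory T cells are CD4 T cells that express Foxp3 and restrain immune responses. The only group was regulatory T cells of the mouse strain C57BL/6NJ, with no genetic change, treatment or age given, in 2 libraries numbered as biological replicates 1 and 2. The labels call them primary cells and point to a CD4 T cell differentiation protocol. Entry names of the lists give 72 hours and include the terms ASTARR and insert. The sources used here do not explain those terms, so it was not established that these were plain ATAC-seq libraries. A single donor identifier stands on both libraries. It was therefore not established that they came from separate animals, and their spread may be technical. With 1 group there was no test between conditions, and every comparison below is a description of these libraries. The lists give no read counts, so depth is unknown. Promoter regions in both replicates were found at 7 of 7 T cell marker genes and 6 of 6 regulatory T cell marker genes, among them Foxp3 and Il2ra, beside 64.4% of all protein-coding genes. The same was true of 1 of 2 CD8 T cell markers, 2 of 5 B cell markers, 1 of 5 myeloid markers, 3 of 5 erythroid and megakaryocyte markers and 3 of 5 stem and progenitor markers. The last 2 lists, at 60.0% each, lie near the share of all genes, and all of these lists are short. The part of other cells in the Hox regions was not tested.

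Hox genes encode homeodomain transcription factors that give cells their position along the body axis during development. Genes of low number stand at one end of a cluster and act towards the head, and genes of high number stand at the other end and act towards the tail. Paralog groups are the genes of the same number in different clusters. In many cell types that do not use them the clusters are held silent by Polycomb complexes, while MLL proteins keep them active. In blood, several Hoxa and Hoxb genes are used by stem and progenitor cells and are turned down as lymphocytes mature.

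The sequences below show what the accessible and the inaccessible Hox promoters look like, since a GC-rich, CpG-rich promoter was found on both sides. Each is given 5′ to 3′ on the strand of its gene, over a window of 300 bases at the start site, as listed by RefSeq on GRCm38.p6, the mm10 build. Capitals mark the GC box GGGCGG and the TATA box TATAAA on either strand. The Hoxa10 promoter (chr6:52240805-52241104, minus strand) and the Hoxd1 promoter (chr2:74762730-74763029, plus strand) overlapped a region in both replicates. At Hoxa10 the overlap took in only the 3′ part of the window, as the regions ended at 52240898 in replicate 1 and 52240829 in replicate 2. The Hoxa5 promoter (chr6:52204538-52204837, minus strand) and the Hoxa6 promoter (chr6:52208623-52208922, minus strand) overlapped no region in either.
Hoxa10: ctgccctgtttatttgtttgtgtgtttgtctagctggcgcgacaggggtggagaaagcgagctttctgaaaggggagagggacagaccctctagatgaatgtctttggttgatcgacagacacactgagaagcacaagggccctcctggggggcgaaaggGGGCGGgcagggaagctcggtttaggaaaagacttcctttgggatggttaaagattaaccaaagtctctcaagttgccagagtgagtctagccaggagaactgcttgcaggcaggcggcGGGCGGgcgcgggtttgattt
Hoxd1: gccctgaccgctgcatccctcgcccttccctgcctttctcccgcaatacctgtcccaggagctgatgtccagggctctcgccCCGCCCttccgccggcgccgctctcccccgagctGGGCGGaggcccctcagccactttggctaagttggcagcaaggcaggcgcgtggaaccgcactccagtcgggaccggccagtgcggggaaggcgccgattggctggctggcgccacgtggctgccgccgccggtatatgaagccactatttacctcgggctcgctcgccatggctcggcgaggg
Hoxa5: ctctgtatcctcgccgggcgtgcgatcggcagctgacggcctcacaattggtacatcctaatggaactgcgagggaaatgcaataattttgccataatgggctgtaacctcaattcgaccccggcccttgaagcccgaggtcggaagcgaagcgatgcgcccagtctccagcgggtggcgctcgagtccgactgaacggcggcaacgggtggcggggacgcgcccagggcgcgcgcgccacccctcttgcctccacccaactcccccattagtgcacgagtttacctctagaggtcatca
Hoxa6: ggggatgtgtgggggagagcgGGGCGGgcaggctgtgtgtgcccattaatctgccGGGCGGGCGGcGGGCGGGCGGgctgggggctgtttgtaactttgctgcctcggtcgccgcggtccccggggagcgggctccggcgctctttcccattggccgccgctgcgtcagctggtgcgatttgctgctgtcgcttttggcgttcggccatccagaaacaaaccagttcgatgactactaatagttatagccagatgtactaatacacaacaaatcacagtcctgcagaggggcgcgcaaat
The Hoxa10 promoter held 12 CpG dinucleotides and 2 GC boxes, at a GC content of 54.3%. In the Hoxd1 promoter there were 29 CpG dinucleotides and 2 GC boxes, at 69.7% GC. The inaccessible Hoxa5 promoter also had 29 CpG dinucleotides, with no GC box, at 61.7% GC. The inaccessible Hoxa6 promoter had 26 CpG dinucleotides and 5 GC boxes, at 62.0% GC. Neither CpG number nor GC boxes thus separated these 4 promoters by their accessibility. The 4 are picked examples, so they do not show how all Hox promoters behave. Of the 24 Hox windows of this kind, the 9 in a region of both replicates had a median GC content of 62.0%. Their median ratio of observed to expected CpG was 0.657. The other 15 had 55.7% and 0.589.

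Most Hox genes had an accessible promoter in these T cells when the promoter was 1 kb to either side of any start. Both replicates had a promoter region at 30 of the 39 Hox genes (76.9%) and at 14121 of 21938 protein-coding genes (64.4%). Replicate 1 gave the same 30 genes, beside 64.8% of all protein-coding genes. Replicate 2 gave 34 of 39 (87.2%), beside 65.8% of all protein-coding genes. The 4 genes called in replicate 2 alone were Hoxb2, Hoxc4, Hoxc11 and Hoxc13. No promoter region was found in either replicate at Hoxa5, Hoxa6, Hoxb8, Hoxc12 and Hoxd12. By cluster, the genes called in both were 9 of 11 in Hoxa, 8 of 10 in Hoxb, 5 of 9 in Hoxc and 8 of 9 in Hoxd. By position along the clusters, they were 7 of 8 in paralog groups 1 to 3, 11 of 15 in groups 4 to 8 and 12 of 16 in groups 9 to 13. Genes of the head end and of the tail end of the clusters were thus both represented. All members of groups 3, 7, 9 and 10 were called in both replicates, and of group 12 neither Hoxc12 nor Hoxd12 was called in any.

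Hox promoter regions were weak beside the promoter regions of all protein-coding genes. Strength was read from the signal that the authors gave to each region, ranked as a percentile among the regions of the same list, since the signal has no stated scale. Where a gene had several promoter regions the strongest was taken. For the 30 Hox genes called in both, the median percentile was 30.7 in replicate 1 and 44.6 in replicate 2. For all 14121 genes called in both it was 82.0 and 83.6. The T cell marker genes stood at 59.8 and 59.3, and the regulatory T cell marker genes at 43.6 and 51.8. A low signal rank was thus not particular to Hox genes. The median −log10 q, the caller's measure of confidence, was 11.7 and 22.9 at Hox promoters, against 120 and 176 at all promoters. At the regulatory T cell markers it ran from 29.1 (Tnfrsf18) to 144 (Il2ra) in replicate 1. In replicate 2 it ran from 42.1 to 236 at the same 2 genes. The markers thus came near the Hox genes in signal rank but lay above the Hox medians in −log10 q. In replicate 1, 28 of the 30 Hox genes lay below the median signal of all genes called in both, and in replicate 2, 29 of 30. A region of low signal can mean that few cells were open there or that all cells were open a little, and these cannot be told apart in a bulk library.

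**Figure D1:**
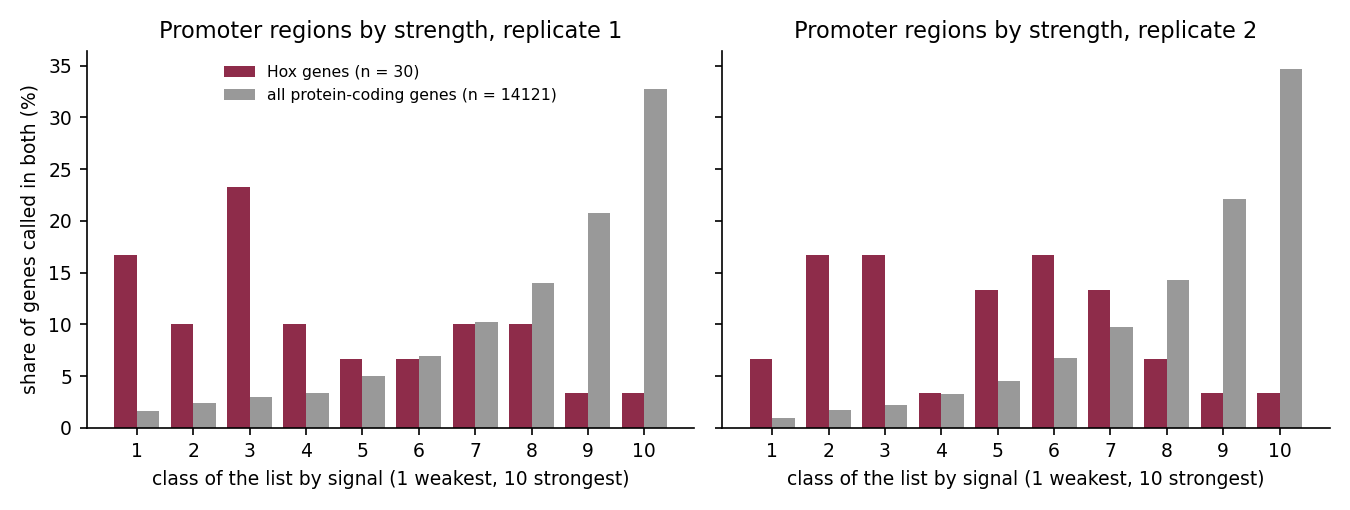
Genes with a promoter region in both replicates, by the class of the list into which the signal of their strongest promoter region fell (x axis, 10 classes of equal size, 1 weakest to 10 strongest), as a share of the genes (y axis, percent), for 30 Hox genes and 14121 protein-coding genes. Hox genes spread over the weaker classes, while 32.7% and 34.7% of all genes stand in the strongest class of replicates 1 and 2.

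The bars by signal class show the size of the gap. In replicate 1, 20 of the 30 Hox genes (66.7%) had their strongest promoter region below the median of the list, against 15.4% of all genes. In replicate 2 it was 17 of 30 (56.7%), against 12.5% of all genes. The strongest of 10 classes held 1 Hox gene (3.33%) in each replicate. Hox promoter regions were also narrower, with medians of 983 and 964 bp, against 1192 and 1261 bp at all promoters. Their summits, the position of most signal within a region, lay farther from the start site. The median distance from the nearest start of the gene was 287 bp in replicate 1 and 182 bp in replicate 2 at Hox genes, against 75 and 76 bp at all genes. Summits within 100 bp of a start were found at 4 and 9 of the 30 Hox genes (13.3% and 30.0%), against 58.7% and 58.0% of all genes.

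The share of Hox genes called depended on how much of each list was kept. With all deposited regions, 76.9% of Hox genes and 64.4% of all genes were called in both. With regions of −log10 q of 5 or more, these shares were 59.0% and 62.5%. With the 50000 regions of strongest signal in each list, they were 41.0% and 59.4%, and with the 50000 regions of highest −log10 q, 38.5% and 60.0%. With this promoter window of 1 kb, the share was therefore above that of all genes in the full lists and below it in the shortened ones. Of the 39 genes, 16 stayed called in the 50000 strongest by signal: 14 of the 30 genes were lost and none gained. Those 14 were Hoxa2, Hoxa9, Hoxa11, Hoxa13, Hoxb1, Hoxb3, Hoxb5, Hoxb6, Hoxb7, Hoxb13, Hoxc8, Hoxd3, Hoxd4 and Hoxd10.

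**Figure D2:**
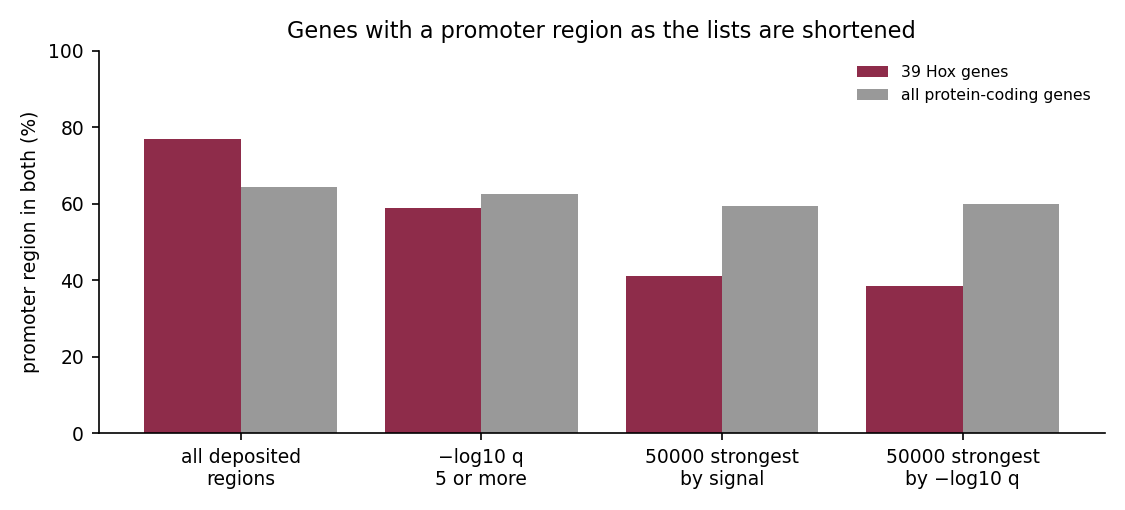
Share of genes with a promoter region in both replicates (y axis, percent) for the 39 Hox genes and all protein-coding genes, in the full lists and in 3 shortened forms of them (x axis). The Hox share is 76.9% in the full lists and 38.5% among the 50000 strongest by −log10 q, while the share of all genes stays between 59.4% and 64.4%.

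Among the genes of the head end, Hoxd1 and Hoxa3 had promoter regions above the middle of both lists. Hoxd1, a gene of sensory neurons, had a signal of 10.2 in replicate 1 and 8.02 in replicate 2, at percentiles 75.6 and 65.0. Hoxa3, needed for the thymus and parathyroid to form, had 8.07 and 7.85, at percentiles 62.0 and 63.9. The Hoxa3 region at chr6:52211454-52213530 overlapped its most upstream start. Its summit lay 1324 bp from the nearest start in replicate 1 and 1419 bp in replicate 2. Hoxa3 was lost when the summit had to lie inside the promoter window.

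Other genes of this end were weak or changed rank between the libraries. Hoxb3 had a signal of 6.21 in replicate 1 and 4.00 in replicate 2, which are percentiles 46.8 and 26.7. Hoxd3 had 3.90 and 4.08, at percentiles 20.1 and 27.8. Hoxb1, used in hindbrain segmentation, had 2.86 and 3.84, at percentiles 5.78 and 24.4. Hoxa2, a regulator of the branchial arches, was low in both libraries, with 3.10 and 3.34 at percentiles 8.82 and 17.0. Hoxb2 was the member nearest to the edge of the promoter window. A strong region over an exon of Hoxb2, at chr11:96352665-96353608, had a signal of 10.7 in replicate 1 and 10.9 in replicate 2, at percentiles 78.3 and 80.9. Its nearer edge lay 1034 bp from a Hoxb2 start in replicate 1, just outside the window, and 977 bp in replicate 2, just inside. Hoxb2 therefore missed the call in replicate 1 by position and not for want of a region.

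In the middle of the clusters, Hoxa4 and Hoxb4 had the highest ranks within the lists. Ranked only among the genes called in both, they stood near the middle or below it. There Hoxa4 was at percentiles 55.3 and 42.4, and Hoxb4 at 41.4 and 45.7. Hoxa4 had a signal of 12.1 in replicate 1 and 10.6 in replicate 2, at percentiles 84.8 and 79.4. Hoxb4, known for expanding blood stem cells when overexpressed, had 10.4 and 10.98, at percentiles 76.7 and 81.3. The −log10 q of its region was 82.1 and 133. Hoxd4, the third gene of group 4 called in both, was weaker, with 3.92 and 5.39 at percentiles 20.2 and 43.7. Hoxc4 had 2.84 in replicate 2, at percentile 9.36, and no region within 1 kb in replicate 1.

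Groups 5 to 8 were mostly of low to middle rank. Hoxc6 had a signal of 8.17 in replicate 1 and 8.40 in replicate 2, at percentiles 63.0 and 67.3, the highest of these groups. The summit of its region lay 1041 and 1048 bp from a start, just outside the promoter window. Hoxc6 was lost when the summit had to lie inside the window, and also when only starts of coding transcripts were used. Hoxa7 had 7.20 and 7.23, at percentiles 55.7 and 59.6. Hoxd8 had 6.96 and 6.24, at percentiles 53.7 and 51.5. These 3 genes stood at or above the middle of both lists. Hoxb5, a marker of long-term blood stem cells in the mouse, had 3.94 and 4.01, at percentiles 20.4 and 27.4. Hoxb7 had 4.38 and 2.87, at percentiles 26.4 and 10.2. Hoxb6 was the weakest gene called in both that had the same region in both lists, with 2.68 and 2.58 at percentiles 4.03 and 5.62. Hoxc8, a gene of thoracic identity, had 3.47 and 2.86, at percentiles 13.7 and 10.2. Hoxc5 shared its strongest region with Hoxc10, so by the strongest region the pair has 1 value, 5.37 in replicate 1 and 6.20 in replicate 2. That region stands at the Hoxc5 start beside Hoxc10. At the other Hoxc5 start a weaker region, chr15:103014253-103014556 in replicate 1, had 3.61 and 3.49, at percentiles 16.4 and 18.9.

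Among the genes of the tail end, Hoxa10 and Hoxd11 stood highest. Hoxa10, a gene of the uterus and of blood progenitors, had a signal of 10.6 in replicate 1 and 10.3 in replicate 2, at percentile 78.1 in both. The region, chr6:52240034-52240898 in replicate 1, covered the upstream Hoxa10 start at 52240854, whose promoter is printed above. In replicate 2 it ended at 52240829, short of that start. Hoxd11, a gene of the forearm, had 7.86 and 8.46, at percentiles 60.4 and 67.6. Hoxd9 had 5.96 and 6.65, at percentiles 43.9 and 54.7. Hoxc10, by the region it shares with Hoxc5, stood at percentiles 38.3 and 51.3. Hoxb9 had 4.80 and 6.05, at percentiles 32.2 and 49.9. Hoxc9, a regulator of thoracic motor neurons, had 4.52 and 5.44, at percentiles 27.4 and 44.0. Hoxa9, a gene of blood stem cells and of leukaemia, was near the bottom of both lists, with 3.05 and 3.28 at percentiles 7.70 and 15.9. Hoxa11 was also low, with 3.13 and 3.77 at percentiles 9.62 and 23.3.

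Group 13, which shapes the digits, the urogenital tract and the tail, stayed below the middle of both lists. Hoxd13 had a signal of 4.60 in replicate 1 and 4.73 in replicate 2, at percentiles 29.3 and 36.2. Hoxb13 had 3.92 and 5.53, at percentiles 20.3 and 45.2. Hoxa13 had 3.24 and 3.18, at percentiles 10.4 and 15.1, from regions that differed between the lists. Hoxc13, a gene of hair, had 3.002 in replicate 2 at percentile 11.9, and in replicate 1 its nearest region lay 10403 bp away. Hoxc11 had 3.34 in replicate 2 at percentile 17.0, and its nearest region in replicate 1 lay 1483 bp from a start. Hoxd10, a gene of lumbar motor neurons, was called in both lists but by regions that did not overlap each other. Its region in replicate 1 had a signal of 3.72 and lay 761 bp from a start, and the one in replicate 2 had a signal of 2.46. When a promoter call had to come from regions that overlap between the lists, a requirement added after the values were seen, Hoxd10 was lost and 29 Hox genes remained.

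The 5 genes with no promoter region were not all far from accessible chromatin. The nearest region edge lay 1558 bp from a Hoxb8 start in replicate 1 and 1564 bp in replicate 2. For Hoxd12 these distances were 1784 and 1782 bp, and for Hoxa6 2732 and 2597 bp. Hoxa5, a gene of lung development, had 6867 and 6732 bp, and Hoxc12 had 5565 and 6390 bp. With a window of 2 kb, Hoxb8, Hoxd12, Hoxb2 and Hoxc11 were gained and the count in both was 34 (87.2%), against 66.4% of all genes. The starts of Hoxa5 and Hoxa6 lie between the Hoxa4 region and the Hoxa3 region, and neither list had a region between those.

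**Figure D3:**
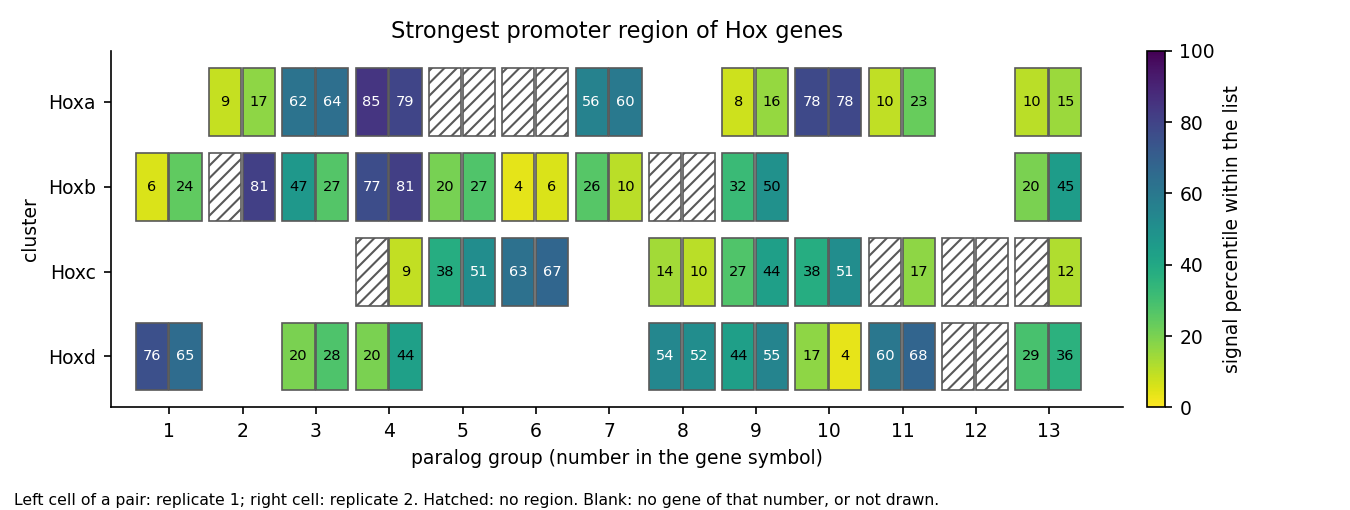
Signal percentile of the strongest promoter region of the Hox genes named in the text (colour and printed value), by cluster (y axis) and paralog group (x axis), with replicate 1 in the left cell and replicate 2 in the right cell of each pair. Hatched cells have no promoter region, and among the pairs drawn Hoxa4 (84.8 and 79.4) and Hoxb4 (76.7 and 81.3) are the darkest.

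Accessible regions were dense along the Hox clusters. The clusters lie at chr6:52155590-52260880 (Hoxa), chr11:96194316-96368256 (Hoxb), chr15:102921103-103036852 (Hoxc) and chr2:74668310-74765142 (Hoxd), from the first to the last Hox gene. Between them, 66 regions of replicate 1 and 73 of replicate 2 had their midpoint there, and 57 and 56 of these overlapped a region of the other list. Such replicated regions numbered 11.5 ± 0.141 per 100 kb of the clusters (SD, n = 2), against 2.42 ± 0.00707 per 100 kb over all chromosomes. The ratio was 4.76 ± 0.0446 (SD, n = 2). In the 50 kb flanks there were 3.25 replicated regions per 100 kb in each replicate, 1.35 times their density over all chromosomes. A replicated region must be in both lists, so these counts agree largely by construction. Their SD therefore does not measure the spread between the libraries. Counting every region of each list gave 14.1 ± 0.990 per 100 kb of the clusters and 2.78 ± 0.247 over all chromosomes (SD, n = 2). Regions covered 11% ± 1.13 of the clusters and 2.08% ± 0.205 of all chromosomes (SD, n = 2).

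**Figure D4:**
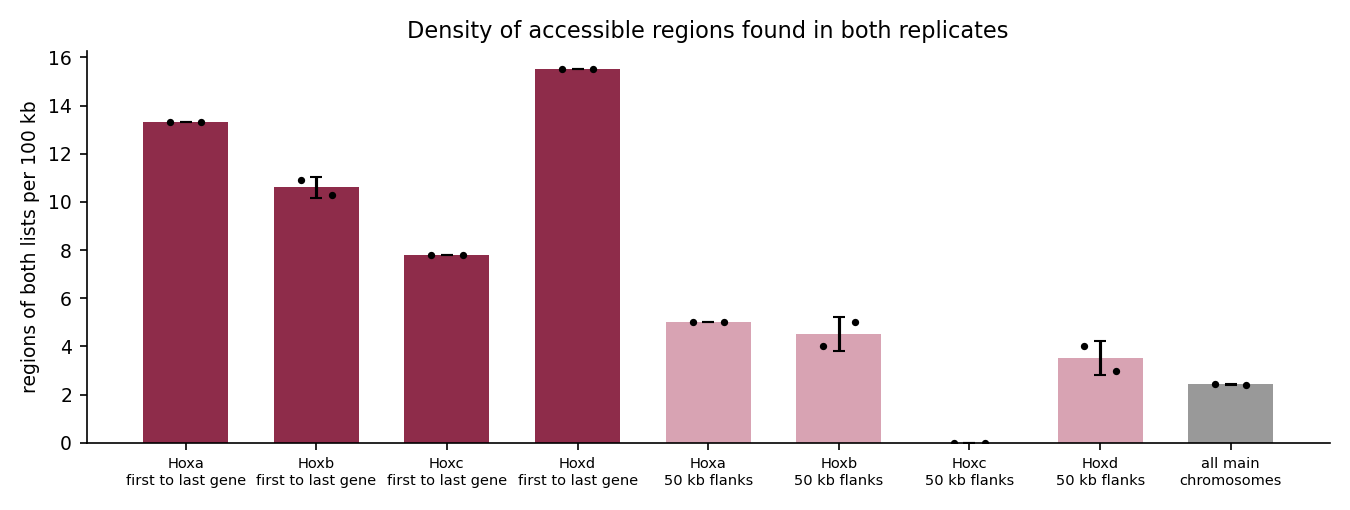
Regions found in both replicates per 100 kb (y axis) between the first and the last Hox gene of each cluster, in the 50 kb flanks, and over all main chromosomes. Bars are means, error bars the SD over the 2 replicates, and points the replicates. The SD is small by construction, since a region must be in both lists to count. Hoxd is highest at 15.5 and Hoxc lowest of the clusters at 7.78, against 2.42 over all chromosomes.

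Hoxd was the densest cluster, with 15.5 replicated regions per 100 kb in both lists. Hoxa had 13.3, Hoxb 10.6 ± 0.424 and Hoxc 7.78 (SD, n = 2, where the replicates differed). Of 27247 bins of 100 kb over the genome, 0.341% held at least the Hoxd density, 0.954% at least that of Hoxa, 3.44% at least that of Hoxb and 10% at least that of Hoxc. The bins were taken regardless of genes and the median bin held 0 replicated regions, while the clusters were cut at genes. No comparison with other gene-dense stretches was made. The replicates differed most in Hoxc, where replicate 1 listed 11 regions and replicate 2 listed 17, and 9 in each were replicated. The flanks of Hoxc held 1 region in each list, and these did not overlap. Lists shortened to the 50000 strongest regions by signal gave 5.69 replicated regions per 100 kb in the clusters and 1.73 over all chromosomes, a ratio of 3.30. The excess in the clusters was thus present, though smaller, in these shortened lists. They keep most of the 68832 and 78178 regions, so this ratio does not describe the strongest regions alone. In the flanks the same lists gave 1.5 per 100 kb, or 0.869 times the density over all chromosomes.

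Along with being dense, cluster regions were weak. Their median signal percentile was 26.4 in replicate 1 and 26.7 in replicate 2, where the median of all regions is 50 by construction. Below the median signal of the list lay 49 of 66 (74.2%) in replicate 1 and 52 of 73 (71.2%) in replicate 2. The strongest of 10 classes held 1 region in each. Matched between the lists, 68 pairs of regions in the clusters and flanks had summits a median of 40 bp apart. Their signals had a Spearman correlation of 0.894 over these 68 pairs, which share their clusters and are not independent samples. The median gap between neighbouring regions in replicates 1 and 2 was 3.52 and 3.54 kb in Hoxa, 5.04 and 4.32 kb in Hoxb, 6.45 and 4.46 kb in Hoxc, and 4.25 and 4.88 kb in Hoxd. Over all chromosomes it was 9.68 and 8.49 kb, longer than in any of the 4 clusters. The longest gap without a region in Hoxa, 26.5 and 26.0 kb, ran from Hoxa2 to Hoxa4. In Hoxb it was 31.1 kb in replicate 1 and 47.7 kb in replicate 2, in the long stretch between Hoxb13 and Hoxb9.

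**Figure D5:**
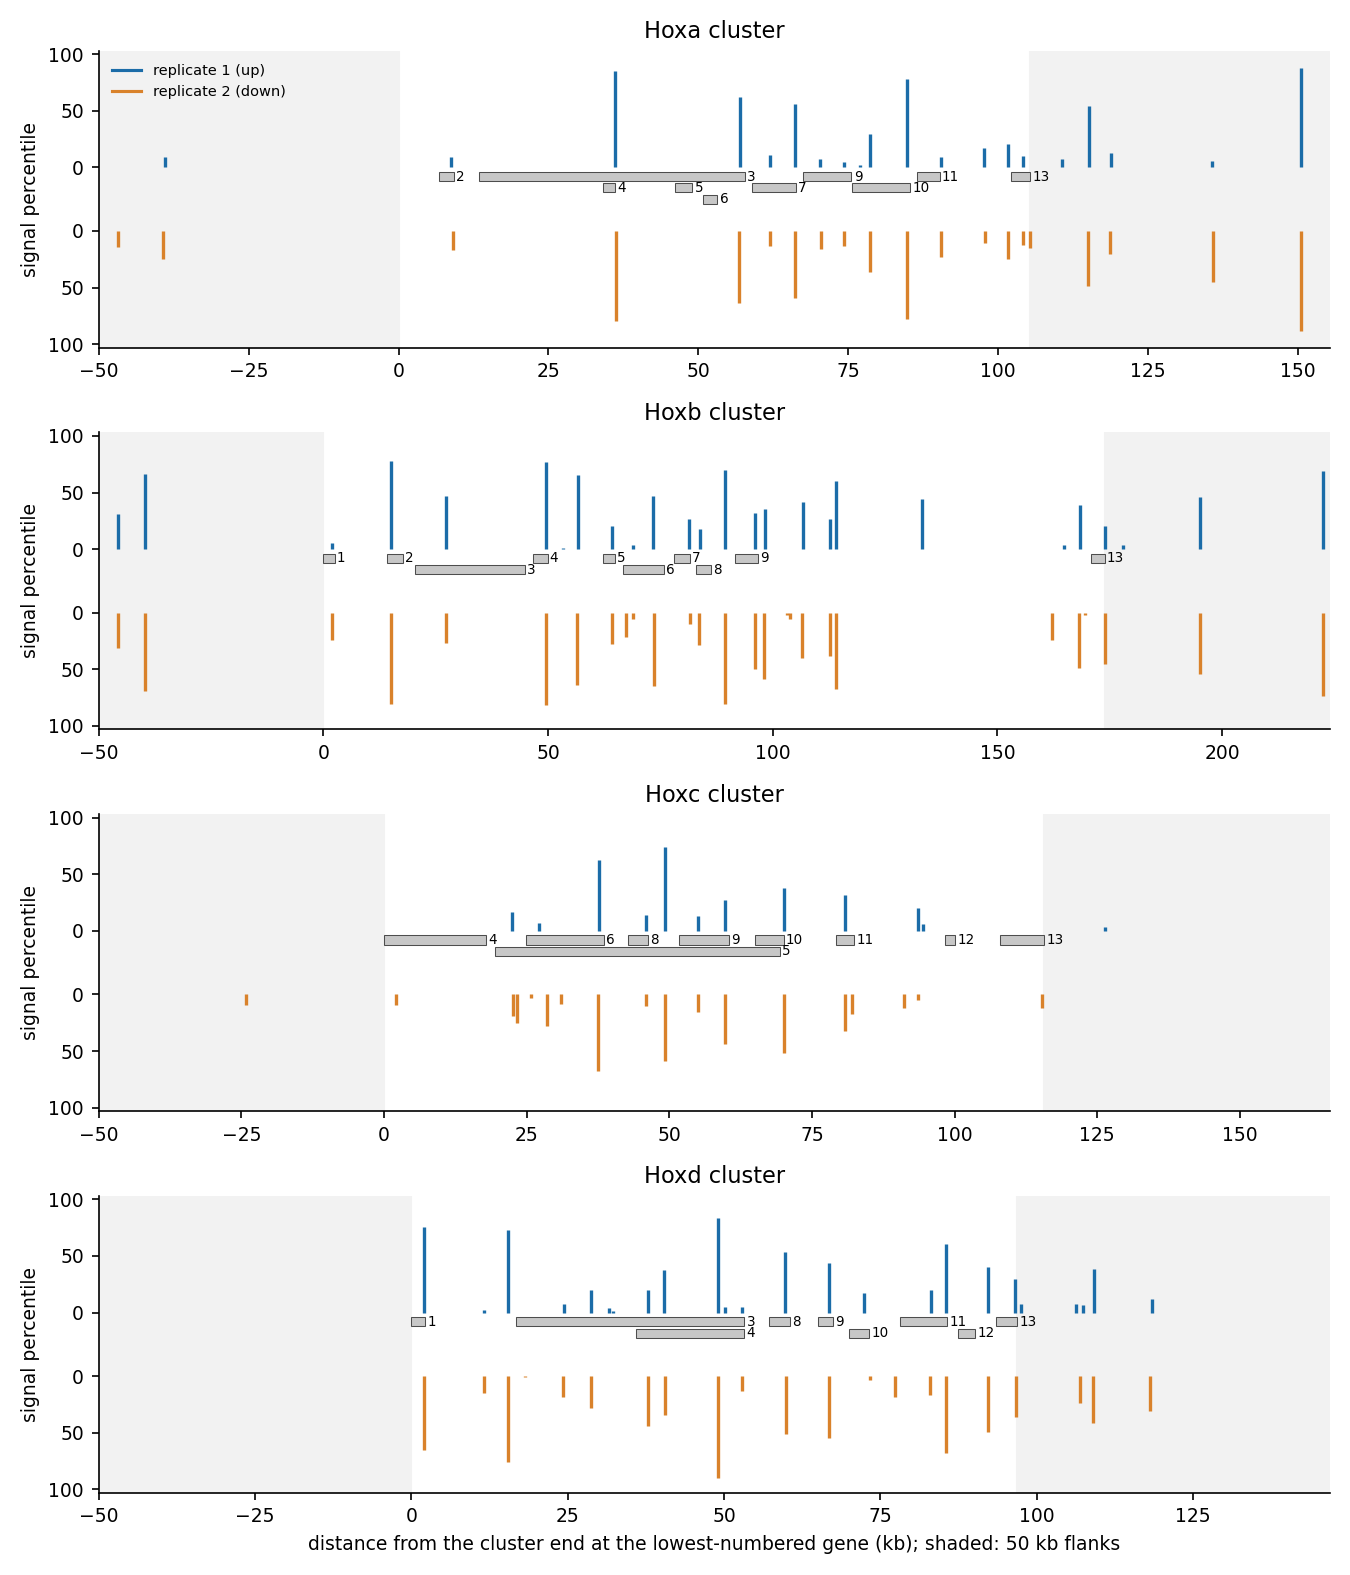
Regions along each Hox cluster with its 50 kb flanks (shaded), by distance from the end at the lowest-numbered gene (x axis, kb). Line height is the signal percentile within the list (y axis), upwards for replicate 1 and downwards for replicate 2, and grey boxes are the Hox genes named in the text, with their numbers. Tall lines stand at the Hoxa4 start (84.8 and 79.4) and the Hoxd3os1 start (83.2 and 89.9).

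Several of the stronger cluster regions were away from Hox promoters, as the maps of the clusters show. Of the regions in the clusters, 26 of replicate 1 and 33 of replicate 2 overlapped no Hox promoter window. The strongest stood at the start of Hoxd3os1, an antisense noncoding RNA, at chr2:74715804-74716356 within an intron of Hoxd3 and Hoxd4 transcripts. It had a signal of 11.7 in replicate 1 and 13.1 in replicate 2, at percentiles 83.2 and 89.9. At Haglr, a noncoding RNA between Hoxd3 and Hoxd1, chr2:74749211-74750126 had 9.77 and 9.76, with a −log10 q of 88.9 and 151. Upstream of Hoxb8, between Hoxb9 and Hoxb8, chr11:96278561-96279367 had 9.21 and 10.8. Within an intron of Hoxc5 transcripts with a summit at -2976 bp from a Hoxc8 start, chr15:102987335-102987860 had 9.85 and 7.13. Between Hoxb5 and Hoxb4, chr11:96311257-96312127 had 8.59 and 7.84. The strongest region of the flanks, at chr6:52305761-52306522 beyond Hoxa13, had 12.7 in both replicates.

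Of 56 noncoding genes with a start in the clusters or flanks, 21 (37.5%) had a region within 1 kb of a start in both replicates, 6 in one and 29 in none. Over all 27099 noncoding genes of the same annotation types on the main chromosomes, 16.5% had one in both. The types were mixed in other proportions there, with 9940 processed pseudogenes, of which 4.15% were called, against 5 processed pseudogenes in the clusters and flanks, of which 0 were called. Genes of the miscellaneous RNA type were 20 of the 56, with 8 called, and 562 of the 27099, with 14.8% called. Of the 21, 14 had a region that also overlapped a Hox promoter window. The 21 are not separate sites, since some were called by the same region. The Hoxa11 region alone gave the calls of Hoxa11os, Gm27492, Gm27695, Gm27817 and Gm28032. Among the microRNA genes, Mir196b and Mir615 were called in both and Mir10b and Mir196a-1 in replicate 2 alone. The noncoding genes Hottip and Hoxaas3 had no region at a start in either list. Besides the Hox genes, 4 protein-coding genes had a start in the clusters or flanks. Evx2, a homeobox gene beside Hoxd13, was called in both at percentiles 7.91 and 23.8. Gm28308 was called in both by the Hoxa3 region, and Gm28230 by the Hoxd4 region. 5730596B20Rik was called in neither.

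Cluster regions were richer in GC and CpG than regions on average, and Hox promoter regions had a GC content close to that of promoter regions of all genes. Median GC content was 58.2% in the cluster regions of both replicates, against 48.5% and 48.1% over all regions. The ratio of observed to expected CpG, which is low where CpG has been lost through methylation, was 0.683 and 0.671 in cluster regions and 0.236 and 0.228 over all regions. At Hox promoters the regions had 60.3% and 59.3% GC, against 58.0% and 57.3% for the promoter regions of all genes. In the narrower window of the RefSeq table, 24 promoters of 22 Hox genes matched. Most were of Hoxa and Hoxd, with only Hoxb1, Hoxb4 and Hoxb8 from Hoxb and only Hoxc4 from Hoxc. Of these 24, 9 (37.5%) overlapped a region in both replicates, against 58.6% of 20150 promoters of all genes. Median GC content of these windows was 57.7% for Hox and 57% for all. Among promoters whose GC content lay in the middle 50% of the Hox promoters, 4 of 12 Hox promoters (33.3%) overlapped a region in both, against 63.1% of all promoters.

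Short motifs were sought on both strands of the same RefSeq windows, which are 300 bases long and mostly of Hoxa and Hoxd. The GC box GGGCGG, bound by SP and KLF factors, was in 10 of 24 Hox promoters (41.7%) and in 47.8% of all promoters. The ETS motif CCGGAAG was in 0 of 24, against 11.9% of all promoters. The RUNX motif TGTGGT was in 1 (4.17%), against 14.7%, and the AP-1 motif TGANTCA in 1 (4.17%), against 7%. The HOX-PBX motif TGATNNAT was in 4 (16.7%), those of Hoxa2, Hoxb1, Hoxb8 and Hoxd11, against 7.15% of all promoters. The TATA box TATAAA was in 4 (16.7%), against 12.1%. The retinoic acid receptor element RARE DR5 was in 0 of 24, against 0.0695%. None of these motifs is a part of another, and a missing motif says only that its letters are not in this window.

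CTCF, the protein that marks domain boundaries and is known to divide Hox clusters into active and silent parts, was looked for by its 12-base core. Exact matches numbered 3 in the clusters and flanks, and none lay in a region of both replicates. With up to 1 mismatch, an allowance made after the exact search, the clusters held 34 matches, 7 of them in a region of both replicates. The 4 sites printed here lay within 57 bp of the summit in both lists. Each is given with 9 bases to either side, 5′ to 3′ on the strand of the match, with the match in capitals. They are shown as the matches closest to the summits of cluster regions.
Hoxa7 exon, chr6:52221800-52221829, minus strand: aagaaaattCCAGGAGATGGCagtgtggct
Hoxa10 exon, chr6:52240532-52240561, minus strand: tcgcagccgCCACGAGATGGCgcactcccg
Between Hoxb9 and Hoxb8, chr11:96278939-96278968, plus strand: gcacagtggCCGCTAGATGGCatccttgct
Between Hoxd13 and Hoxd12, chr2:74673169-74673198, minus strand: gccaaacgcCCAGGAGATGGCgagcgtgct
The Hoxa10 site lay 21 and 36 bp from the summit of the Hoxa10 promoter region described above. The site upstream of Hoxb8 lay 24 and 29 bp from the summit of its region. At the site between Hoxd13 and Hoxd12 the region had a signal of 5.51 in replicate 1 and 5.96 in replicate 2, with summits 47 and 43 bp away. Over all cluster regions, 7.58% and 6.85% had such a match within 100 bp of the summit, against 14.8% and 14.9% of all regions. Many cluster regions are promoter regions, and of those at Hox promoters 7.32% had a match in each replicate, close to 8.27% and 8.66% of all promoter regions. Of cluster regions away from Hox promoters, 7.69% and 6.06% had one, which is 2 regions in each replicate, against 16.9% and 16.7% of all regions off promoters. Among the 20 cluster regions of strongest signal it was 15.0% in each, or 3 regions. A match does not show that CTCF was bound.

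The proteins that act with or on Hox genes had accessible promoters in nearly every case, where 64.4% of all protein-coding genes had one in both replicates. The TALE cofactors, the PBX, MEIS and PKNOX proteins that bind DNA with HOX proteins, were called in both replicates at 9 of 9 genes, with median percentiles of 81.7 and 84.0. Genes of the Polycomb complexes, which silence Hox clusters, were called at 26 of 26, with medians of 85.5 and 85.4. Of the MLL and trithorax activators, 14 of 15 were called, with medians of 84.7 and 84.9, and Kdm6b, a histone demethylase, had no promoter region. Genes of chromosome architecture, Ctcf and cohesin among them, were called at 9 of 9. These lists stand near the medians of 82.0 and 83.6 over all genes called in both, while Hox genes stand at 30.7 and 44.6.

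Other developmental regulators, most of them homeobox genes, had values near those of the Hox genes. Of 70 such regulators outside the clusters, 53 (75.7%) were called in both, against 64.4% of all protein-coding genes and 76.9% of Hox genes, with median percentiles of 29.4 and 40.4. Their members with no promoter region were Pax1, Pax7, Pax8, Irx1, Irx4, Irx6, Tlx1, Lmx1a, Alx1, Meox1 and Meox2, and those called in 1 replicate were Dlx3, Dlx5, Six6, Nkx2-5, Irx5 and Prrx2. Among the ParaHox and Evx genes, close relatives of Hox genes, 6 of 8 were called, with medians of 18.3 and 24.7, and Cdx1 and Cdx4 had none. Homeobox genes used in lymphocytes, such as Satb1 and Zeb1, were called at 15 of 15, with medians of 67.5 and 73.6. Hhex stands both in this list and among the 70 regulators. The gene lists were set side by side without a test of the difference between them.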

How the data were processed

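ATAC-seq regions were taken from 2 deposited narrowPeak lists on mm10, 1 per library, made from that library's own alignments and not from pooled reads, per the deposited text files. Upstream software (aligner, peak caller) with its versions, and any shift for transposase offsets, remain not given in the sources used here. The deposited signal has no stated scale, so it was ranked within each list. The authors' −log10 p was not used, and their −log10 q served to filter and describe regions. The deposited score was not used. Summits came from the deposited offset column, counted from each region's start. Depth is unknown, and no interval that needs it is given.

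Coordinates were compared with GRCm38 over 21 chromosomes, and 0 regions passed a chromosome end. Genes and start sites came from GENCODE release M21, promoter sequences from RefSeq. Regions were assigned to clusters by midpoint. Replicated regions overlap a region of the other list by 1 bp or more. Densities used the ungapped genome of 2648 Mb. Python 3.11.15, pandas 2.3.3, numpy 2.4.6, pysam 0.24.0 and samtools 1.23.1 were used. The overlap procedures were tested on 2000 simulated regions and recovered 100% of the planted overlaps and promoter calls.

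All Hox genes were named except 1, which is counted but not reported here or drawn in the maps. Of each gene list, members with no promoter region were named where most had one. The genes of the flanks were named with their calls. The members, gene lists and motifs were chosen with earlier results of these data known, and the printed promoters of Hoxa5 and Hoxa6, the strongest regions away from promoters, and the noncoding genes after their values were seen. The alternatives were other windows, start sites, thresholds, overlaps and flanks, and leaving out each replicate.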

Additional observations from a re-analysis of the deposited data

How the results depend on the processing

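No paired analysis was possible because there was 1 group and no second condition. Of 112 values under alternatives, 79 stayed within 1.5 times the reported count or within the spread between replicates and 33 moved, none of them with a test. For the densities in clusters and flanks that spread was 0.141 and 0 per 100 kb, which is small by construction. Every alternative to these densities counted as moved. Windows of 500 bp or 2 kb, summits inside the window, other start sites and flanks of 0, 10 or 100 kb left every count within 1.5 times. The largest shifts came from keeping the 50000 strongest regions by signal or by −log10 q. Hox genes with a promoter region in both then numbered 16 and 15, with 5 and 5 in Hoxa, 2 and 2 in Hoxb and 5 and 4 in Hoxd. Replicated regions in the clusters and flanks then numbered 34 under both rankings, with 8 in Hoxa, 13 in Hoxb, 4 in Hoxc and 9 in Hoxd, and densities were 5.69 per 100 kb in the clusters and 1.5 in the flanks. With −log10 q of 5 or more, Hoxb had 5 genes, and the densities were 8.95 and 2.00. A stricter reciprocal overlap of regions between the lists gave 10.6 and 1.75. Using each list alone, Hox genes numbered 30 to 34, and Hoxc genes 5 to 8. Regions in the clusters and flanks numbered 83 to 88, those of Hoxc 12 to 18, and the densities were 13.4 to 14.8 in the clusters and 3.75 to 4.25 in the flanks. Shortened lists hold fewer regions by construction. Why Hox genes lost more calls than all genes was not tested beyond their ranks. The unknown depth limits what a missing region means.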
